A study of Heliconius melpomene cythera and Heliconius melpomene rosina with 32 samples.

Results

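The difference between female and male wings was examined in pupae of the butterfly Heliconius melpomene at 50% of pupal development. The members were chosen by the labelled sex, stage and tissue, as all libraries of forewing plus posterior hindwing at that stage, which gave 8 of the 32 libraries and 8 of the 16 individuals of the series. Females were cythera individuals 1 and 3 and rosina individuals 6 and 8, and males were cythera individuals 2 and 4 and rosina individuals 5 and 7, so that each sex had 2 animals of each subspecies. H. melpomene cythera is the iridescent blue subspecies and H. melpomene rosina the non-iridescent one, and all animals came from captive populations kept at 25 °C and fed Passiflora biflora. The study sequenced mRNA of the same animals' anterior hindwing, the region with a different scale type, as a second library, and of 8 further animals at 70% development, of which 2 cythera were labelled female and 2 cythera and 4 rosina male. The study was designed to compare subspecies and wing regions, and sex is here a comparison that its labels allow. The study removed 1 rosina individual as wrongly labelled, but its number is not given in the sources used here, so all animals entered as labelled and each was left out in turn. Each individual is a separate animal, and 4 animals stand for each sex.

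In butterflies and moths, unlike mammals, it is the female that has unlike sex chromosomes. Females carry a Z and a W and males a pair of Zs, so RNA of a sequence found on the W alone can come from females only. The anterior hindwing of many Heliconius males carries androconia, scales that release male scent, whereas most of the wing surface looks much alike in both sexes of H. melpomene. The deposited rows are loci numbered by the transcript assembly (MSTRG), many of which carry an annotated gene ID starting with HMEL. No row ID was found among the 15508 genes of the RefSeq table of assembly ASM5695672v1, so loci are given by these IDs, and their roles, chromosomes and sequences were not used here.

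The 8 libraries held 22582518 to 45570497 counts, with a median of 37945216. Levels are given in CPM, counts scaled for library size. A library in which a locus had no counts allows a true level of up to 3 counts, or 0.0658 to 0.133 CPM, counting error alone considered. Of 30720 rows, 24740 had a count in at least 1 of the 8 libraries and 12779 passed the filter on low counts. In a multi-dimensional scaling (MDS) of the libraries, dimension 1 held 25.3% of the variation, of which 98.3% lay between subspecies. Sex took up 54.9% of dimension 2 and 35.1% of dimension 3, which held 23.4% and 13.0% of the variation. Cythera male 4 stood apart on dimension 2, at -3.35 against -1.32 to 0.04 in the other 3 males and 0.31 to 2.29 in the females, so counts of loci are also given without that animal.

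With 4 animals of each sex, few loci passed the threshold of edgeR's test, and most of those that did were read almost only in females. Loci that did not pass are not thereby shown to be alike in the sexes. Of the 12779 loci tested, 13 were differentially expressed (DE), that is, had a Benjamini-Hochberg adjusted p (FDR) under 0.05 in edgeR's quasi-likelihood F-test with subspecies as a term. They were 0.102% of the loci tested. In whole wing tissue, fewer cells of a type and less RNA per cell cannot be told apart. Of these, 11 were higher in females (0.0861%) and 2 were higher in males (0.0157%). All 13 were assembled loci without an annotated gene ID, a class that made up 28.3% of the loci tested (3622 loci), whereas none of the 9157 other loci was DE. At an unadjusted p under 0.05 there were 968 loci (7.57%), 406 higher in females and 562 higher in males. The median log2 fold change of female over male across all tested loci was -0.0022. Without male 4 the number DE was 11, of which 9 were among the 13, and without male 5 or male 7 it was 5. DESeq2 called 276 loci on the same design, 109 higher in females and 167 higher in males, among them all 13.

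**Figure D1:**
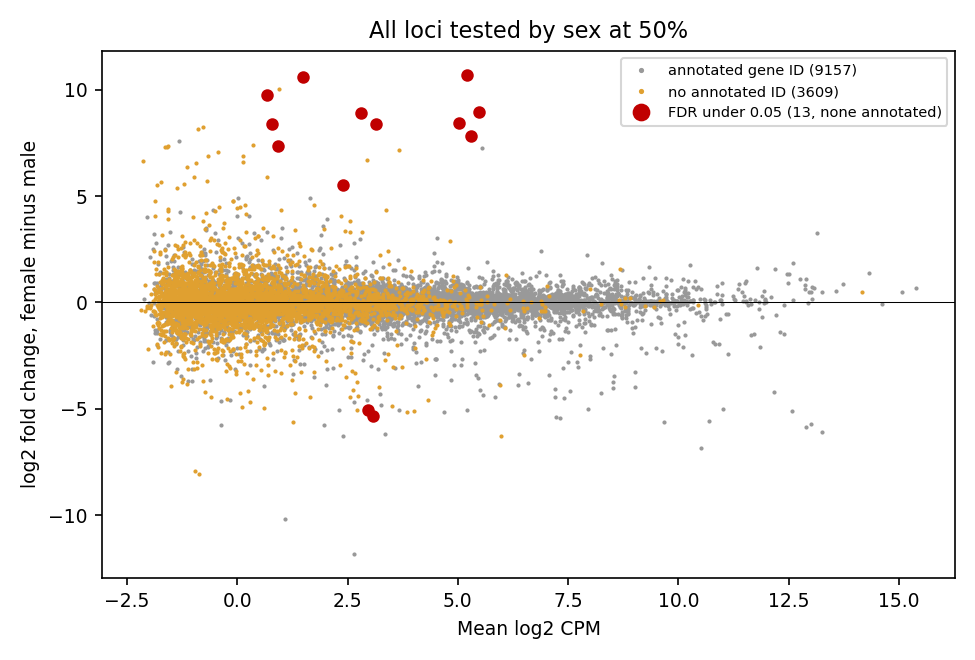
Log2 fold change of female over male (vertical axis) against mean log2 CPM (horizontal axis) for the 12779 loci tested in the forewing and posterior hindwing at 50%. Grey points are loci with an annotated gene ID, orange points assembled loci without one, and red points the 13 DE loci, of which 11 lie far above 0 and 2 far below.

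Among the 11 loci higher in females, 4 had 1775 counts or more in every female library and at most 24 in any male library. MSTRG.4827, the locus with the smallest p, had 2887, 1777, 1934 and 1775 counts in females 1, 3, 6 and 8, and 6, 4, 5 and 14 counts in males 2, 4, 5 and 7. The sexes did not overlap, and cythera and rosina females were alike. On the scale of normalized CPM these were 65.3 ± 9.67 in females and 0.181 ± 0.0777 in males (mean ± SD, n = 4 each), and the log2 fold change was 8.45 (SE 0.32, edgeR FDR = 0.000167). MSTRG.20286 had 4024, 2184, 2907 and 2478 counts in the females and 4, 12, 5 and 6 in the males (log2 fold change 8.94, SE 0.41, edgeR FDR = 0.000361). For MSTRG.4824 the females had 3373, 1882, 2473 and 1830 counts, while males 2 and 7 had none and males 4 and 5 had 2 and 4 counts (log2 fold change 10.70, SE 0.69, edgeR FDR = 0.00213). MSTRG.20567 had 3528, 1922, 2786 and 2022 counts in females and 6, 12, 24 and 9 counts in males (log2 fold change 7.82, SE 0.52, edgeR FDR = 0.00213). These 4 loci kept an FDR under 0.05 when any single animal was left out.

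The other 7 loci higher in females were read at lower levels, with means of 3.09 to 17.6 CPM in females, and again no male reached the lowest female. MSTRG.3119 had the smallest difference, with 326, 456, 331 and 160 counts in females and 10, 16, 5 and 4 in males (log2 fold change 5.51, SE 0.48, edgeR FDR = 0.0118). MSTRG.25029 was read 650, 330, 483 and 348 times in females and 4 times in male 2 only (edgeR FDR = 0.0118). MSTRG.3170 likewise had 746, 389, 633 and 505 counts in females, and its 8 male counts all came from male 2 (edgeR FDR = 0.0405). In both loci a single cythera male thus held every male count. MSTRG.4832 had 177, 107, 107 and 56 counts in females and 1 count in males, a ratio of 520 with a 95% counting interval of 92.9 to 20601 (edgeR FDR = 0.0118). For MSTRG.25664 the female counts were 131, 81, 126 and 126 and the males had 3 in all, a ratio of 180 with an interval of 61.2 to 876 (edgeR FDR = 0.0278). These intervals, from the summed counts, hold counting error only.

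MSTRG.18044 and MSTRG.8593 had no counts in any male. The females had 245, 130, 199 and 143 counts of MSTRG.18044, which was at least 68.0-fold higher in females if 3 counts are allowed in each male library (edgeR FDR = 0.0197). For MSTRG.8593, the locus with the largest FDR of the 11 and outside the rule for named loci, they had 166, 99, 89 and 56 counts, at least 38.2-fold more than males (edgeR FDR = 0.0468). Unlike the 4 most abundant loci, these 7 kept an FDR under 0.05 in at most 4 of the 8 fits that left out 1 animal, for those of them the naming rule covers. The loci most like MSTRG.4827 across the 8 libraries, after the subspecies means were removed, were MSTRG.8593 (Pearson r = 0.998), MSTRG.18044 (r = 0.998) and MSTRG.5087 (r = 0.997), a description over 8 libraries that share the split by sex.

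**Figure D2:**
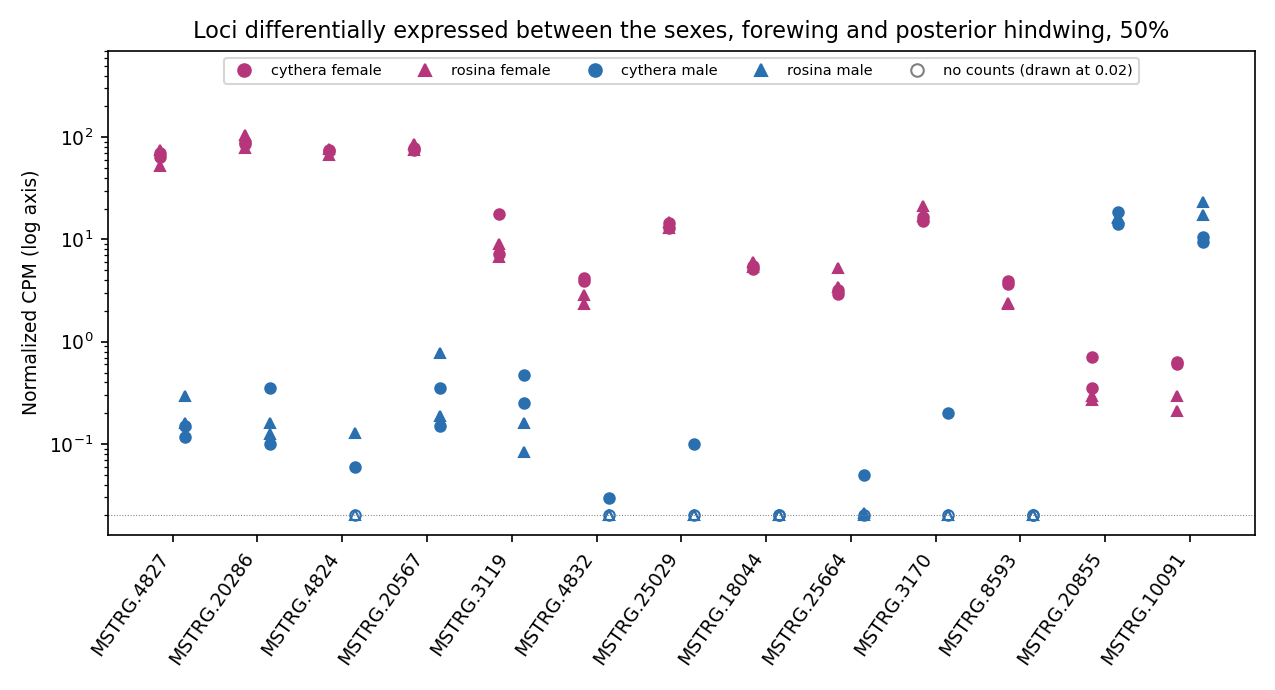
Normalized CPM (log axis) of the 13 DE loci in each of the 8 libraries, with females in magenta, males in blue, circles for cythera and triangles for rosina, and open symbols at 0.02 for libraries without counts. In each of the first 11 loci all females lie above all males, and in MSTRG.20855 and MSTRG.10091 all males lie above all females.

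In the opposite direction, 2 loci were higher in males, and in both of them the females also had reads. MSTRG.20855 had 570, 632, 509 and 767 counts in males 2, 4, 5 and 7 and 32, 9, 10 and 7 counts in females 1, 3, 6 and 8. The males were close to each other, and female 1 was the highest of the females. Normalized levels were 16.4 ± 1.81 CPM in males and 0.408 ± 0.206 CPM in females (mean ± SD, n = 4 each). The log2 fold change was -5.34 (SE 0.33, edgeR FDR = 0.00211), and the FDR stayed under 0.05 without any single animal. MSTRG.10091 had 381, 360, 712 and 833 counts in the males and 27, 16, 11 and 5 in the females (log2 fold change -5.07, SE 0.51, edgeR FDR = 0.0197). Here both rosina males were above both cythera males, and both rosina females below both cythera females. The log2 fold change was -4.03 (SE 0.30) in cythera and -6.27 (SE 0.33) in rosina, a difference with an unadjusted p of 0.00108 but an FDR of 0.744 by edgeR.

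Other loci sorted the sexes the same way without passing the threshold. MSTRG.20197, chosen after its values were seen, had 370, 371, 411 and 599 counts in males and 31, 40, 16 and 7 in females (log2 fold change -4.09, SE 0.51, edgeR FDR = 0.0576). MSTRG.25941, chosen likewise, had 369, 389, 506 and 626 counts in males and 12, 43, 13 and 7 in females (edgeR FDR = 0.147). Over all tested loci the sexes did not overlap in 617 (4.83%), of which 318 (2.49%) had every female above every male and 299 (2.34%) every male above every female. Among the 13 DE loci the sexes did not overlap in any, and the loci most like MSTRG.20855 were MSTRG.10091 (r = 0.984), MSTRG.4834 (r = 0.982) and MSTRG.11640 (r = 0.980).

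A second description used raw counts without a test and asked which rows were read in one sex only, with at least 10 counts in each library of one sex and at most 3 in each library of the other. This gave 22 loci read in females and 4 read in males. Of the 22 female loci, 21 had no annotated ID, 21 entered the test and 4 were DE, namely MSTRG.4832, MSTRG.18044, MSTRG.25664 and MSTRG.8593. The abundant loci above did not qualify, since males had up to 24 reads of them. The single annotated female locus was MSTRG.14012 (HMEL012615g1), with 46, 18, 17 and 12 counts in females and 2, 0, 0 and 3 in males. Some of the loci have nearby numbers. MSTRG.4824, MSTRG.4827 and MSTRG.4832 were read in females, whereas MSTRG.4834 was read in males alone. The count of one-sex loci rose to 40 when male 4 was left out and to 43 when female 8 was left out.

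These loci were then followed into libraries that had no part in choosing them. In the anterior hindwing of the same 8 animals, 21 or 22 of the 22 loci had more than 3 counts in each female and 0 to 4 in each male. In the 8 animals at 70%, which are other individuals, both females had more than 3 counts of all 22 in either wing region, and the 6 males had more than 3 counts of 1 to 3 of them. MSTRG.14012 was the locus that all these males shared, with 18 to 99 counts in their forewing and posterior hindwing libraries against 66 and 83 in the females, and without it the males had 0 to 2 of 21. In the forewing and posterior hindwing at 70%, 21 of the 22 loci were higher in every female than in every male, against 5.09% of all loci tested at 50%. The same held in the anterior hindwing for 20 of 22 at 50%, against 2.86%, and for 21 of 22 at 70%, against 6.58%. In each of these 24 libraries the labelled sex thus matched the set of female loci that was read. The anterior hindwings at 50% came from the same animals as the choice, so only the 2 females and 6 males at 70% were other animals. In the 8 libraries of the choice the rule itself fixed the match.

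**Figure D3:**
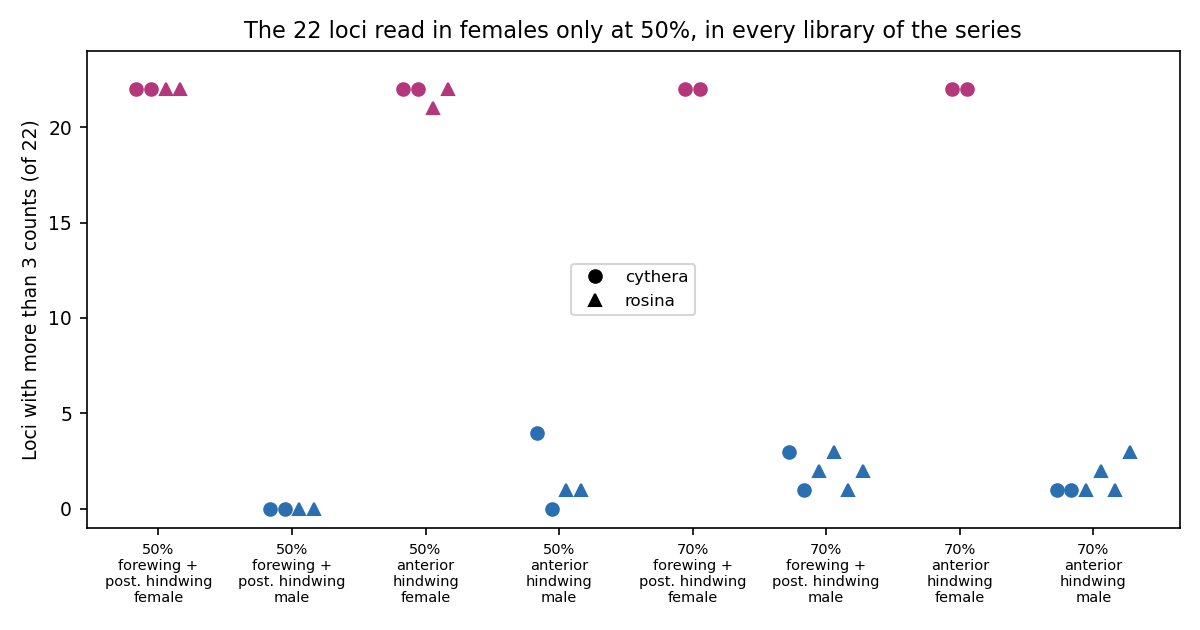
Number of the 22 loci read in females only at 50% that had more than 3 counts (vertical axis) in each of the 32 libraries, by stage, wing region and sex, with circles for cythera and triangles for rosina. Female libraries hold 21 or 22 of the loci and male libraries 0 to 4, and the rule that chose the loci fixed the values of the 8 forewing and posterior hindwing libraries at 50%.

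The 11 DE loci higher in females also sorted the other libraries. All 11 were higher in every female of the anterior hindwing at 50%, and 10 of 11 were higher in every female in both regions at 70%. The exception was MSTRG.3119, with 38 and 47 counts in the forewing and posterior hindwing of the 70% females and 0 to 57 in the 6 males. MSTRG.4827 had 1465 and 1902 counts in these females and 6 counts in rosina male 14, with none in the other 5 males. In cythera alone at 70%, with 2 animals of each sex, 2 of 13014 loci were DE (0.0154%), MSTRG.20567 and MSTRG.16221, both higher in females. MSTRG.20567 had 1780 and 2209 counts in females and 1 and 2 in males there (log2 fold change 10.44, SE 0.33, edgeR FDR = 0.0341). MSTRG.16221 had 504 and 710 counts in females and 8 and 8 in males (log2 fold change 6.39, SE 0.23, edgeR FDR = 0.0341), and its log2 fold change of 7.16 at 50% had an FDR of 0.0892 by edgeR. Leaving out any of the 4 animals left 0 loci DE at 70%, with 566 to 1020 loci at an unadjusted p under 0.05, and DESeq2 called 167 with all 4.

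The loci higher in males did not keep their order at 70%. MSTRG.20855, at 509 counts or more in every male at 50%, had 443 and 59 counts in cythera females 10 and 12, 37 and 16 in cythera males 9 and 11, and 44, 368, 14 and 10 in rosina males 13 to 16. MSTRG.10091 had 306 and 76 counts in the females, 35 and 25 in the cythera males and 62, 451, 19 and 9 in the rosina males. In both loci female 10 and male 14 stood above the other 6 animals, and the sexes overlapped. The same 2 animals were the highest for MSTRG.20197, with 276 and 317 counts against 11 to 72 in the others, and for MSTRG.25941, with 245 and 293 counts against 4 to 79. The anterior hindwing of these animals again had 842 counts of MSTRG.20855 in female 10 and 636 in male 14, and 0 to 53 in the others. The test of whether the sex difference changed between stages in cythera found 0 of 15354 loci by edgeR's quasi-likelihood test (0%), with 967 at an unadjusted p under 0.05 and 242 by DESeq2. For MSTRG.20855 the interaction had an unadjusted p of 0.00168 and an FDR of 0.700, and for MSTRG.10091 an unadjusted p of 0.0007 and an FDR of 0.565, both by edgeR. That count was 316 without male 2 and 0 without any other animal.

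Annotated loci with the largest contrast were read almost only in males and chiefly in the anterior hindwing. Of the 4 loci read in males alone, MSTRG.11565 (HMEL015921g1) had 68, 1065, 397 and 187 counts in males 2, 4, 5 and 7 in the forewing and posterior hindwing and none in the females. It was at least 127-fold higher in males if 3 counts are allowed in each female library, but its males spread widely, at 12.5 ± 13.5 CPM (mean ± SD, n = 4), and it was not DE (edgeR FDR = 0.382). In the anterior hindwing the same males had 3485, 11216, 4998 and 4561 counts and the females again none (edgeR FDR = 0.0430). At 70% no library of either sex had more than 17 counts of it. MSTRG.11567 (HMEL015924) followed, with 17, 460, 53 and 31 counts in males and none in females in the forewing and posterior hindwing (edgeR FDR = 0.492). Its anterior hindwing counts were 374, 5721, 553 and 317 in males and 9, 0, 10 and 15 in females. Male 4 was the highest male for both loci in both regions. The regions were separated by dissection, and whether anterior tissue was present in the forewing and posterior hindwing libraries was not tested.

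The remaining male loci were MSTRG.587, with 35, 13, 40 and 64 counts in males, and MSTRG.4834, with 25, 12, 44 and 58, and neither had a count in females or was DE (edgeR FDR = 0.218 for both). The males of the anterior hindwing at 50% were above all females for all 4 male loci, against 2.80% of the tested loci. At 70% this held for 0 of 4 in the forewing and posterior hindwing, against 4.08%, and for 1 of 4 in the anterior hindwing, against 6.58%.

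**Figure D4:**
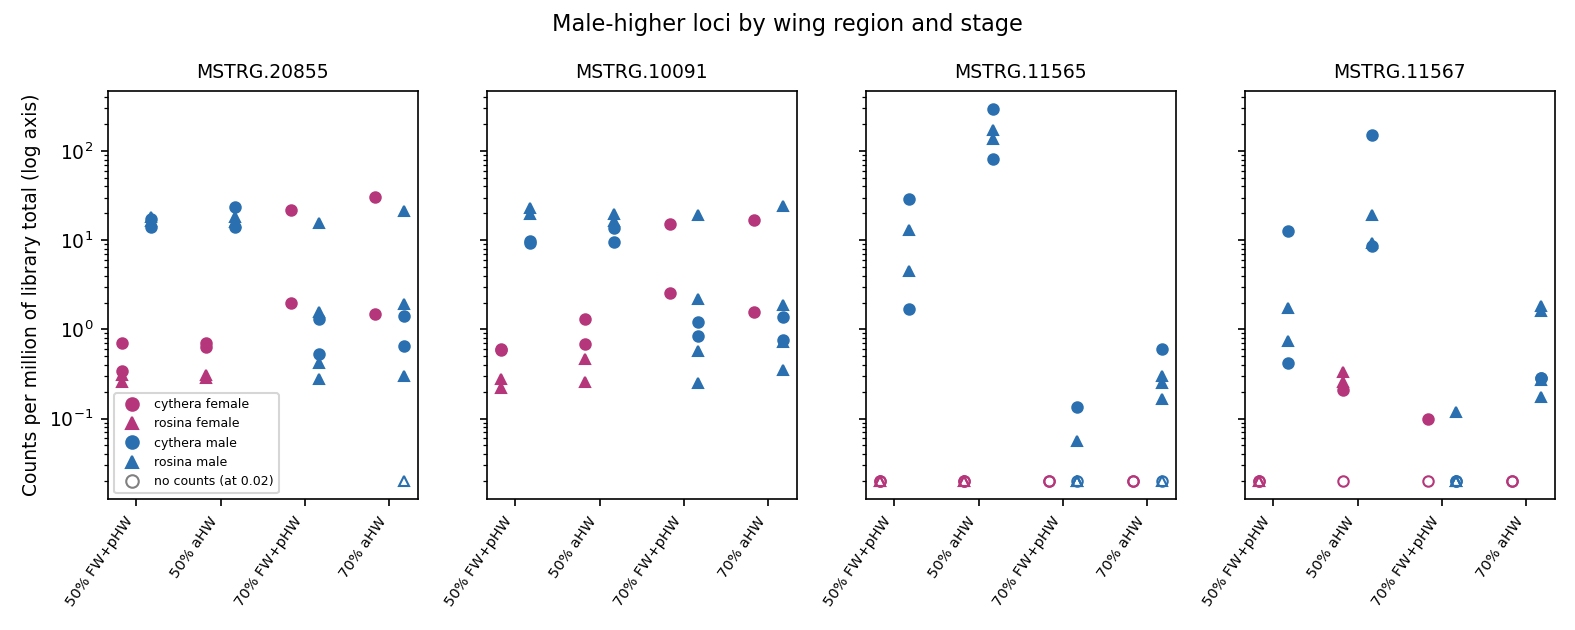
CPM of the library total (log axis) for both DE loci higher in males, MSTRG.20855 and MSTRG.10091, and for 2 annotated loci, MSTRG.11565 and MSTRG.11567. The latter pair was read in males only in the forewing and posterior hindwing at 50%. Every library is shown by stage and wing region (FW+pHW, forewing and posterior hindwing, and aHW, anterior hindwing). Females are magenta, males blue, circles cythera and triangles rosina, and open symbols at 0.02 mark libraries without counts. The first pair separates the sexes at 50% and not at 70%, where female 10 and male 14 are high. The second pair is read almost only in males, most in the anterior hindwing at 50%.

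None of the 9157 tested loci with an annotated ID was DE, and their smallest FDR was 0.147 by edgeR. At an unadjusted p under 0.05 by edgeR, 272 of them were higher in females and 435 higher in males, against 406 and 562 among all loci tested. The share at that p was 7.43% of loci with 1 annotated ID and 9.69% of loci joining 2 or more, against 7.57% of all. With a change of more than 1 on the log2 scale as well, the counts were 73 and 216. No such count was made over all loci, so these 73 and 216 cannot be read as a trait of annotated loci. Among annotated loci the smallest p belonged to MSTRG.9497 (HMEL014623g1), with 9459, 6330, 2934 and 5872 counts in males and 5463, 2214, 1519 and 854 in females (log2 fold change -1.26, SE 0.20, edgeR FDR = 0.147). Both subspecies had the males higher, although cythera females and rosina males overlapped. Its log2 fold change in the anterior hindwing was -1.24 (SE 0.14, edgeR FDR = 0.0318). MSTRG.15043 (HMEL031844g1) showed a larger difference with more spread, at 2318, 9503, 898 and 3585 counts in males and 174, 104, 273 and 51 in females (log2 fold change -4.42, SE 0.80, edgeR FDR = 0.218). At 70% the locus had 29223 to 152961 counts in the forewing and posterior hindwing, and the sexes overlapped. Higher in females was MSTRG.17410 (HMEL032686g1), with 492, 292, 35 and 17 counts in females and 4, 4, 5 and 3 in males (log2 fold change 4.89, SE 0.87, edgeR FDR = 0.218). The sexes did not overlap, and cythera females were above rosina females. Also higher in females was MSTRG.18340 (HMEL010214g1), with 1348, 805, 941 and 654 counts in females and 671, 722, 503 and 850 in males (log2 fold change 0.67, SE 0.12, edgeR FDR = 0.218), and the sexes did not overlap once scaled for library size. MSTRG.19576 (HMEL004675g1) had 20362, 9968, 15350 and 6617 counts in females and 8248, 4023, 5513 and 7912 in males, or 385 ± 74.9 against 167 ± 36.3 CPM (mean ± SD, n = 4 each), and its log2 fold change was 1.20 (SE 0.23, edgeR FDR = 0.264). All these loci were picked after their values were seen.

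Members of 4 families are named in the table: UDP-glycosyltransferases (UGT), which attach sugars to small molecules, glutathione S-transferases (GST), which conjugate glutathione, and gustatory (Gr) and ionotropic (IR) receptors, which are sensory receptors. Of their 188 rows, 46 were tested, 22 GST, 17 UGT, 5 IR and 2 Gr, and 0 were DE by edgeR. At an unadjusted p under 0.05 there were 4 (8.70%, against 7.57% of all loci): UGT44A4, UGT42B3 and IR25a higher in males, and IR21a higher in females. UGT44A4 (MSTRG.18465, HMEL022654) was the only one of the 46 whose sexes did not overlap. It had 6320, 9494, 3792 and 12834 counts in males and 2905, 1310, 2282 and 1521 in females (log2 fold change -1.78, SE 0.30, edgeR FDR = 0.184). Levels were 60.5 ± 6.22 CPM in females and 207 ± 79.3 CPM in males (mean ± SD, n = 4 each), so the females were close together and the males spread. At 70% it had 556 and 997 counts in the cythera females and 579 to 951 in the 6 males of the same region, which overlapped. IR25a, a coreceptor of the family, shares the locus MSTRG.20800 with the ID HMEL014199g1, and whether both IDs are the same gene was not tested. That locus was read at 580 ± 166 CPM in females and 958 ± 260 CPM in males, and the sexes overlapped (log2 fold change -0.75, SE 0.30, edgeR FDR = 0.644). The 22 GSTs ranged from -0.82 to 0.89 on the log2 scale, with none at an unadjusted p under 0.05.

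Whether the sex difference depended on subspecies was tested by an interaction term, which was significant for 0 of 12779 loci by edgeR (0%), with 570 at an unadjusted p under 0.05 and a smallest FDR of 0.104. DESeq2 called 81 loci. The sex difference within each subspecies was taken from that same fit to all 8 libraries. Both subspecies thus shared 1 estimate of the spread and were not separate analyses. In cythera 8 loci were DE (0.0626%, 6 higher in females) and in rosina 11 (0.0861%, 6 higher in females). Of these, 6 were shared with the same direction. MSTRG.4827 had a log2 fold change of 8.92 (SE 0.41) in cythera and 8.06 (SE 0.39) in rosina, and that of MSTRG.20286 was 8.61 (SE 0.57) and 9.30 (SE 0.59).

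Wing regions of the same animals were compared with individual as a block. In the anterior hindwing at 50%, 32 of 13250 loci were DE by sex (0.242%, 19 higher in females and 13 in males), and 11 of the 13 DE loci of the forewing and posterior hindwing were DE there in the same direction. The sex difference itself changed with region for 8 of 16025 loci (0.0499%), all annotated and all with males relatively higher in the anterior hindwing. MSTRG.22804 (HMEL006583g1) had 16717, 29, 10443 and 3868 counts in the anterior hindwing of males 2, 4, 5 and 7 against 1271, 0, 872 and 493 in their forewing and posterior hindwing, and 63 to 294 against 58 to 462 in females (interaction 3.80 on the log2 scale, SE 0.26, edgeR FDR = 0.000426). Male 4 was the lowest male in both regions. MSTRG.1719 (HMEL011374g1) had 3408, 501, 856 and 191 counts in the anterior hindwing of males and 7 to 30 in females, and 215, 89, 65 and 41 against 14 to 50 in the forewing and posterior hindwing (interaction 4.31, SE 0.57, edgeR FDR = 0.0370). No locus of these 8 was DE by sex within either region alone. In the anterior hindwing the smallest FDR among them was 0.0841 by edgeR, for MSTRG.11975. There MSTRG.16526 had a log2 fold change of 0.037, so its males were not higher. Without the block the count was 0, with 152 loci at an unadjusted p under 0.05, and with it DESeq2 called 112. It was 51 without male 4, 3 without male 2 or female 3, and 4 without female 1 or female 6.

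Sex differences were also summarised along the numbers of the assembled loci, in bins of 100 tested loci. These numbers follow the assembly, and chromosomes were not used here. Medians of the 128 bins lay between -0.157 and 0.121 on the log2 scale. The 642 tested loci numbered from 24668 to 26171, a run chosen after the bins were seen, had a median of -0.102, with 385 of them lower in females, against a median of 0.0029 and 6019 lower (49.7%) among the 12100 other numbered loci. Within the libraries it was chosen on, the run had a median of -0.0923 in cythera and -0.0734 in rosina, which is no independent support. In other animals, cythera at 70%, its median was -0.0797, and 56.6% of its loci were lower in females against 50.8% of the others. Leaving out 1 animal moved the 50% median to between -0.121 and -0.0643. Some bins of 100 outside the run also had low medians. These were -0.124 at loci 3170 to 3369, -0.136 at 9391 to 9617, -0.125 at 10281 to 10457 and -0.107 at 10712 to 10900. In bins of 50 the lowest median, -0.454, lay outside the run, at loci 22110 to 22220. Against the direction of the run, 2 of its members, MSTRG.25029 and MSTRG.25664, were among the 11 DE loci higher in females.

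**Figure D5:**
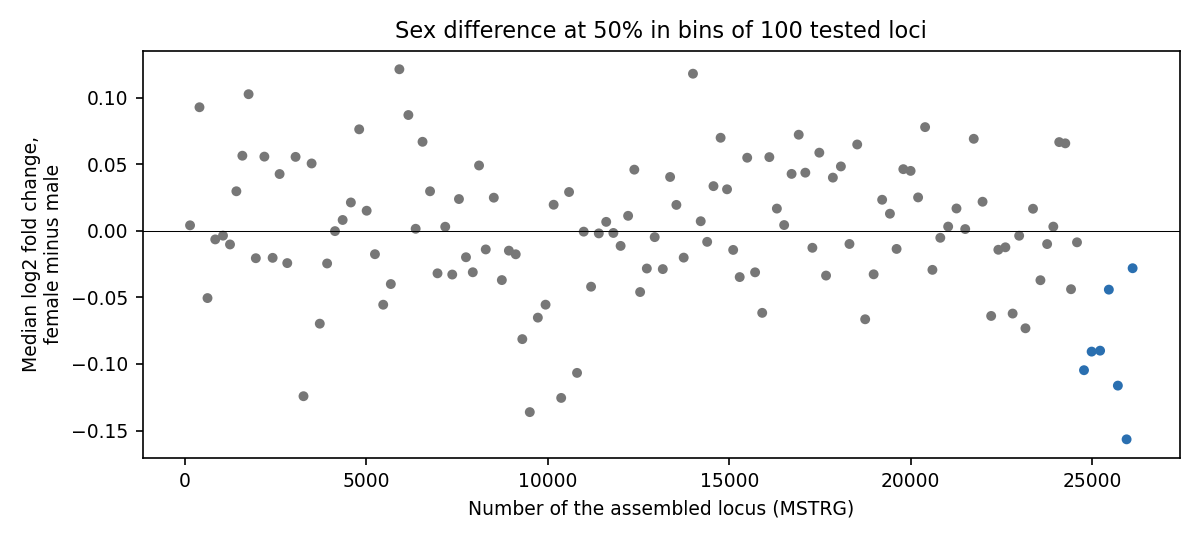
Median log2 fold change of female over male (vertical axis) in 128 bins of tested loci, placed by the number of the assembled locus (horizontal axis). Blue points are the bins from locus 24668 on, a run chosen after these medians were seen. They all lie below 0, with a median over their 642 loci of -0.102. The bins just before the run, at loci 24338 to 24494 (-0.0439) and 24496 to 24665 (-0.0086), are also below 0.

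For MSTRG.3173 and MSTRG.11557, loci that earlier results of these data single out, no difference by sex was detected, with wide errors. MSTRG.3173, which has no annotated ID and which the study names, had 0, 0, 20 and 4325 counts in the females and 0, 6, 9904 and 1686 in the males. It was near 0 in cythera animals of both sexes and varied among rosina animals, and its log2 fold change was -1.22 (SE 1.72, edgeR FDR = 0.885). MSTRG.11557 (HMEL015914) had 57, 7, 4 and 0 counts in females and 15, 0, 17 and 43 in males (log2 fold change -0.56, SE 1.9, edgeR FDR = 0.958). In the anterior hindwing at 70% the same locus had 4 and 12 counts in the 2 cythera females and 2549 and 1167 in the 2 cythera males, and 800 to 7975 in the rosina males.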

How the data were processed

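RNA was sequenced from pupal wings of H. melpomene with a stranded mRNA kit. Per the labels and the study's methods, the authors trimmed the reads (Trimmomatic 0.38), aligned them to the H. melpomene genome (HISAT2 2.1.0) and used SAMtools 1.9 and StringTie 1.3.5, and they deposited raw counts per locus, whole numbers not scaled for library size. The genome build and whether counting used strand are not given in the sources used here, so loci that overlap on opposite strands cannot be told apart. No row lacked an ID, and 0 count columns were left unused.

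The counts were tested with edgeR 4.0.16 under R 4.3.3 (filterByExpr on sex, minimum count 10, TMM, quasi-likelihood F-test in its earlier form), with subspecies as a term. Positive log2 fold changes mean higher in females, and p-values were adjusted over all tested loci (Benjamini-Hochberg FDR, threshold 0.05). Standard errors come from the F statistic, CPM used TMM library sizes, and p-values are two-sided. DESeq2 1.42.0 and limma 3.58.1 (voom) were alternatives, beside other filters, size factors, dispersions and terms, and each animal left out in turn. Figures used Python 3.11.15 and matplotlib 3.10.9. The tests were also run on simulated counts. That check asked for the right sign in nearly all recovered changes and for some recovery in the main design. It set no limit on false calls or on missed changes.

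Named loci were the 10 with the smallest p in each direction among DE loci whose sexes did not overlap, up to 4 annotated loci each way and family members that were DE, and MSTRG.3173 and MSTRG.11557. Only 12 DE loci and these 2 met the rule, and others were named after their values were seen. The comparison, the lists and this rule were chosen with earlier results of these data known. No markers of cell types could be looked up. Both libraries of a number are of one animal by the labels, and their deviations from the group means correlated at 0.665 to 0.860 over 8 pairs. Libraries of the same sex and subspecies differed beyond sampling noise (chi-square per degree of freedom 195 to 1637, the highest in cythera males), so none was counted as a repeat. Normalization factors were 0.932 to 1.14.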

Additional observations from a re-analysis of the deposited data

Results flagged for a closer look

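In groups of 4 animals, 5 of 38 sets of values had 1 animal far from the other 3. The rule would flag about 1 in 20 (1.9 sets) by chance for evenly spread values. That number does not apply to loci near 0, since 1 animal with counts and 3 without are always flagged. In MSTRG.3173, female 8 had 182.5 CPM while the other females had at most 0.541, and male 5 had 320 CPM with the other males at 0 to 35.4. The other cases were single low values against males without counts: male 4 at 0.0295 CPM of MSTRG.4832, male 2 at 0.0998 CPM of MSTRG.25029 and male 2 at 0.1995 CPM of MSTRG.3170.

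The sex difference changed with wing region for 8 loci, with interactions on the log2 scale of 3.80 for MSTRG.22804, 2.08 for MSTRG.11975, 1.19 for MSTRG.11589, 0.99 for MSTRG.16526, 1.21 for MSTRG.22746, 3.53 for MSTRG.22385, 1.16 for MSTRG.9484 and 4.31 for MSTRG.1719. Male 4 was the lowest male in both regions for 5 of the 8, MSTRG.22804, MSTRG.11975, MSTRG.11589, MSTRG.16526 and MSTRG.22385, and its part in these interactions was not tested beyond the count without it, which was 51.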

How the results depend on the processing

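The 13 DE loci became 276 with DESeq2, 20 without a filter, 23 with the newer quasi-likelihood form, 20 with the mean of the differences within subspecies, 22 with limma-voom and 32 in the anterior hindwing. With at least 10 counts in every library the number was 0, since each of the 13 had under 10 counts in at least 1 library and was removed, and 802 of 9477 loci had an unadjusted p under 0.05. RLE size factors, robust dispersions, no subspecies term and summed regions gave 12 to 19. Leaving out 1 animal gave 5 to 14. The interaction with subspecies was called for 81 loci by DESeq2, 3 without a filter and 0 without any 1 animal. The interaction with wing region went from 8 to 0 with no replicate block, 112 with DESeq2 and the block, and 3 to 51 without 1 animal. At 70%, DESeq2 called 167 loci and leaving out 1 animal gave 0, and the interaction with stage gave 242 by DESeq2 and 0 to 316 without 1 animal. The 26 one-sex loci became 13 at 20 counts or more, and 27 to 43 without 1 animal, an alternative chosen after seeing the data, as was leaving animals out of the run of numbers. The lowest bin median, -0.157, was -0.454 in bins of 50, at other loci (22110 to 22220). The setting of at least 10 counts in every library removed the named loci and is not part of the tally that follows. Of 252 results for named loci where they were tested, 200 kept direction and call. For 17 of MSTRG.3173 and 14 of MSTRG.11557 among the 200, what was kept was the lack of a call. The call was lost in 47 results and the sign turned in 5. All 5 were never called: MSTRG.11557 at 1.23 in the anterior hindwing, 0.66 with regions summed, 0.44 without female 6 and 0.63 without female 8, and MSTRG.3173 at 0.55 without male 5. Without 1 animal these 2 loci ranged from -1.94 to 0.63 and from -8.27 to 0.55. The cause of these changes was not tested. Depth limits loci under 0.0658 to 0.133 CPM.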
